A study of Mus musculus with 8 samples.

Results

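The 9 genes described here are the posterior members of the mouse HoxA and HoxD clusters that were measured in these libraries: Hoxa9, Hoxa10, Hoxa11 and Hoxa13, and Hoxd9, Hoxd10, Hoxd11, Hoxd12 and Hoxd13. They were picked by gene symbol, by a rule that uses no measured value, although the family was chosen with earlier results of these data known, and make up 9 of the 28001 features listed in every library. Their raw counts of unique molecular identifiers (UMIs, tags that mark each captured transcript) were read in 8 single-cell libraries of embryonic forelimb.

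All mice were C57BL/6J. The labels of the 6 sorted libraries give the genotype Hic1 CreERT2/CreERT2 with Rosa26 LSL tdTomato/tdTomato, in which tamoxifen lets the Cre made from the Hic1 locus switch on a red reporter. Both whole limb libraries were taken from limbs of the same line, per the methods. Dams received 7.5 mg of tamoxifen by gavage at embryonic day 10, so tdTomato marks cells that expressed Hic1 at about that time and their descendants. Sorted tdTomato+ cells were collected from whole forelimbs at E11.5, E12.5, E13.5 and E14.5. At E16.5 a proximal segment (distal stylopod, elbow and proximal zeugopod) and a distal segment (distal zeugopod and autopod) were collected separately, and the E16.5 proximal library therefore holds no hand plate. Its label gives no segment. That it is the proximal one is inferred from the other E16.5 label, which says distal, and from the methods. The 2 whole limb libraries at E11.5 hold tdTomato+ and tdTomato- cells together, all negative for blood and endothelial surface markers. Forelimbs of several embryos were pooled for each sorted library, so only the E11.5 whole limb group has a replicate. Nothing in the sources used here says whether its 2 libraries came from separate embryos, so p-values measure only the spread between them, which may be technical. A CreERT2 insertion in Hic1 is shared by every group, and there is no library without it.

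Hox genes encode homeodomain transcription factors that lie in 4 clusters and are numbered by their place in the cluster. In the limb bud, HoxA and HoxD genes of groups 9 and 10 are best known for the upper arm (stylopod), those of group 11 for the forearm (zeugopod) and those of group 13 for the wrist and digits (autopod). HoxD genes are transcribed in an early wave in the future upper arm and forearm and in a late wave in the future digits, each driven by enhancers on another side of the cluster. In the hand plate HOXA13 and HOXD13 are known to act together, and Hoxa11 is normally silent where Hoxa13 is active.

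The 4 HoxA members lie on the minus strand of chromosome 6 between Hoxa9 (chr6:52223100-52231089) and Hoxa13 (chr6:52257694-52260880). The 5 HoxD members lie on the plus strand of chromosome 2 between Hoxd13 (chr2:74668310-74671599) and Hoxd9 (chr2:74697727-74700208), both in GRCm38 coordinates. The libraries read 3′ ends, so a level refers to the gene and not to a promoter or an isoform. Hoxd10 and Hoxd11 share their strand with an annotated gene, Gm28309, that spans both and was not counted. Whether it affected the counting of reads in their overlap is not known here. Hoxa11 lies opposite an antisense transcript, Hoxa11os, that was likewise not counted.

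RefSeq start sites (GRCm38.p6) were found for all 9 members, 2 each for Hoxa10 and Hoxd11. The 250 bases before the start are shown for Hoxa13 and Hoxd13, which were detected together below, for Hoxa11, whose detection is set against theirs, and for the upstream of the Hoxd11 starts, which alone carries a posterior Hox motif. Capitals mark a motif found on either strand. These windows are chr6:52260881-52261130 and chr6:52245811-52246060 on the minus strand for Hoxa13 and Hoxa11, and chr2:74667975-74668224 and chr2:74679308-74679557 on the plus strand for Hoxd13 and Hoxd11.
Hoxa13: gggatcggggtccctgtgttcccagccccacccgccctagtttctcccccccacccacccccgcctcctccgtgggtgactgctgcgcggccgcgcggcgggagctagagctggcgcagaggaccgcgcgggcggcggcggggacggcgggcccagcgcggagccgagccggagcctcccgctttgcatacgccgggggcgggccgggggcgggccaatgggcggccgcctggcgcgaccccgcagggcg
Hoxd13: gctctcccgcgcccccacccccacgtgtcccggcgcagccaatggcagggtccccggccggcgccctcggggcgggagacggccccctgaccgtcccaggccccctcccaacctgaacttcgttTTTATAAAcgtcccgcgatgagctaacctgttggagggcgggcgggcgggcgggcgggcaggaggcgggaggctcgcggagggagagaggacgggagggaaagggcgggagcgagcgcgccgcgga
Hoxa11: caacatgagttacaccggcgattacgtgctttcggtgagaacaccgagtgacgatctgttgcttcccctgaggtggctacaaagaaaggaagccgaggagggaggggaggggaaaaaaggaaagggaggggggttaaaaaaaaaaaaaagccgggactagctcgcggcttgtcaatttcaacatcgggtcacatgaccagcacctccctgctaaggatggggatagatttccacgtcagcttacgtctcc
Hoxd11: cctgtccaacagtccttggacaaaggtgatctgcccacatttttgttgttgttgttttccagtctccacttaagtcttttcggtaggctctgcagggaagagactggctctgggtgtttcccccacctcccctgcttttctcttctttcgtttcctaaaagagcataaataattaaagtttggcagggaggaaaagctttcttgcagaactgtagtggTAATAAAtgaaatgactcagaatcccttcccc

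The Hoxa13 and Hoxd13 windows were the richest in G and C of the 9 genes, with a GC content of 80% and 35 CpG dinucleotides for Hoxa13 and 74.4% and 31 for Hoxd13. Hoxa11 had 52% and 13, where the medians over 32851 RefSeq promoter windows of that length were 52.4% and 6. The motif TTTATTA, bound by posterior Hox proteins in vitro, stood on the reverse strand (TAATAAA) of the Hoxd11 window, 32 bases before the start, and in no other member's window, against 4.52% of all windows. TATAAA was found in Hoxd13 (on both strands, overlapping, 124 and 126 bases before the start) and in 1 window of Hoxa10, against 12.4% of all windows. TTTATGG (2.43% of all windows) and the Meis-type motif TGACAG (15.9%) were in none of the members' windows. A match is a run of letters and not evidence of binding, and no binding was measured here.

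The libraries held between 32957305 and 236408650 UMIs. After filtering (at least 3000 UMIs and at most 10% mitochondrial UMIs per cell) 53085 of 57469 barcodes were kept, and 51266 mesenchymal cells, 3155 to 10172 per library, were summed for the levels below. Levels are given as CPM, the counts of a gene scaled to a common total of those summed UMIs. With 1 library per group there is no test, and ratios carry an exact 95% interval that covers counting error only. The E11.5 to E13.5 libraries used an earlier reagent kit than the others, so stage and kit cannot be told apart across that step. The E16.5 distal matrix was counted with another version of Cell Ranger than the proximal one. A pair of libraries shared at most 54 barcodes, and at most 1.08% of the smaller library in any pair. At E11.5 the sorted and whole limb cells stood apart: when clustered together without Hox genes, 97.6% of sorted cells fell in 3 clusters that held 11 of 11146 whole limb cells. Hic1 stood at 0.77 and 0.79 CPM in whole limb and at 23.8 to 38.0 CPM in the sorted libraries, and tdTomato at 3.76 and 4.31 CPM in whole limb and 431 to 1410 CPM in the sorted libraries. The forelimb factor Tbx5 was present in every library (23.9 to 223 CPM), whereas the hindlimb factor Pitx1 stayed at 0.49 to 1.52 CPM. Tbx4, another hindlimb factor, ranged from 0.77 CPM in E16.5 proximal to 6.23 CPM in E11.5 sorted.

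Groups 9 and 10, the members nearest the middle of their clusters, were present in every library. Hoxa9 stood at 153 and 140 CPM in whole limb 1 and 2, 110 in E11.5 sorted, 79.3 at E12.5, then 79.8 at E13.5, 63.0 at E14.5, 46.7 in E16.5 proximal and 51.3 in E16.5 distal. The E12.5 and E13.5 levels were within counting error of each other, and the highest level was 3.27 times the lowest. Hoxa10 stood at 257 and 262 CPM in whole limb, 306 in E11.5 sorted, 290 at E12.5, then 316 at E13.5, 171 at E14.5, 74.0 in E16.5 proximal and 82.2 in E16.5 distal. It thus lay between 257 and 316 CPM in all E11.5 to E13.5 libraries and was lower in each of those from E14.5 on, and its extremes differed 4.27-fold. Hoxd9 stood at 68.7 and 60.7 CPM in whole limb, 97.7 in E11.5 sorted, 63.9 at E12.5, then 48.2 at E13.5, 19.7 at E14.5, 15.5 in E16.5 proximal and 12.01 in E16.5 distal. In the sorted libraries its level was lower at each later stage (8.14-fold from end to end), and E16.5 distal was its lowest library. Hoxd10 stood at 88.8 and 78.8 CPM in whole limb, 66.4 in E11.5 sorted, 67.6 at E12.5, then 55.5 at E13.5, 44.0 at E14.5, 9.57 in E16.5 proximal and 18.0 in E16.5 distal. Both E16.5 libraries were its lowest.

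Group 11, known for the forearm, split by segment. Hoxa11 stood at 38.9 and 34.4 CPM in whole limb, 22.1 in E11.5 sorted, 43.8 at E12.5, then 42.4 at E13.5, 32.4 at E14.5, 10.5 in E16.5 proximal and 45.1 in E16.5 distal. E16.5 distal was its highest library, within counting error of E12.5, and E16.5 proximal its lowest. Hoxd11 stood at 211 and 213 CPM in whole limb, 103 in E11.5 sorted, 104 at E12.5, then 73.6 at E13.5, 85.1 at E14.5, 29.2 in E16.5 proximal and 81.6 in E16.5 distal. Its whole limb libraries lay above all others, and E16.5 proximal again was the lowest.

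Groups 12 and 13, at the ends of the clusters, varied most. Hoxd12 stood at 76.4 and 70.6 CPM in whole limb, 10.6 in E11.5 sorted, 13.8 at E12.5, then 20.7 at E13.5, 16.6 at E14.5, 1.59 in E16.5 proximal and 10.8 in E16.5 distal, a 47.9-fold range. Hoxd13 stood at 133 and 114 CPM in whole limb, 7.60 in E11.5 sorted, 13.6 at E12.5, then 25.6 at E13.5, 58.8 at E14.5, 1.99 in E16.5 proximal and 79.0 in E16.5 distal, a 66.9-fold range in which no neighbours overlapped. Hoxa13 stood at 15.1 and 14.8 CPM in whole limb, 0.48 in E11.5 sorted, 0.77 at E12.5, then 1.45 at E13.5, 16.7 at E14.5, 0.51 in E16.5 proximal and 31.7 in E16.5 distal, a 66.1-fold range in which the counting intervals of the 3 lowest libraries, E11.5 sorted, E16.5 proximal and E12.5, overlapped. Both group 13 genes were therefore high in whole limb, in the E14.5 library and in E16.5 distal, and low in the sorted E11.5 to E13.5 libraries and in E16.5 proximal. A sum over cells cannot tell fewer expressing cells from less RNA per cell, so shares of cells are given beside it. With every cell thinned to 3000 UMIs, the share of cells with a Hoxd13 UMI was 19.4% and 18.5% in whole limb, 1.27% in E11.5 sorted, 2.84% at E12.5, then 6.22% at E13.5, 13.1% at E14.5, 0.43% in E16.5 proximal and 19.3% in E16.5 distal. The share, like the level, was lowest in E16.5 proximal and was low in each sorted library up to E13.5. Without thinning it was 2.95% in E16.5 proximal and 49.0% in E16.5 distal. For Hoxa13 the thinned shares were 4.01% and 3.68% in whole limb, 0.11% to 0.44% in the E11.5 to E13.5 sorted and E16.5 proximal libraries, 5.11% at E14.5 and 8.97% in E16.5 distal.

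**Figure D1:**
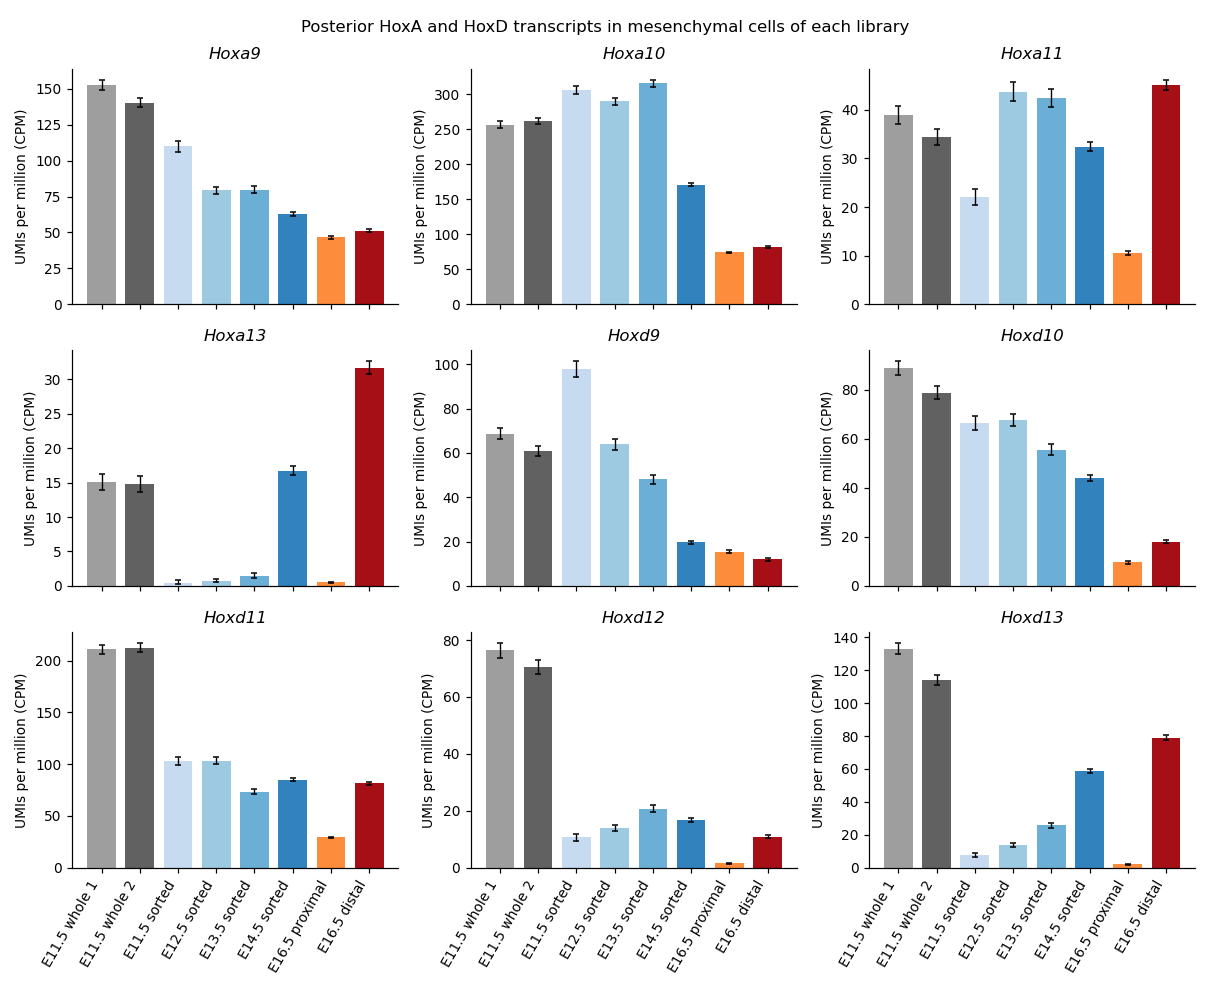
Level of each of the 9 genes (CPM of summed mesenchymal UMIs) in each of the 8 libraries. Bars are levels on axes that start at 0 and differ between panels, and whiskers are exact 95% intervals that cover counting error only. Hoxd12 and Hoxd13 are lowest in E16.5 proximal and Hoxa13 in E11.5 sorted, not separable from E12.5 and E16.5 proximal, while the Hoxa9 levels lie within 3.27-fold of each other.

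As shares of the UMIs of the 9 genes together, which total 1042 and 988 CPM in whole limb and 190 in E16.5 proximal, the mix shifted along the clusters. Group 13 took 14.2% and 13.05% in whole limb, 1.12% in E11.5 sorted, 2.12% at E12.5, then 4.09% at E13.5, 14.9% at E14.5, 1.32% in E16.5 proximal and 26.9% in E16.5 distal. Group 10 took the largest share in every library but E16.5 distal, from 33.2% in whole limb 1 to 56.0% at E13.5, and 24.3% in E16.5 distal, where group 11 led with 30.8%. Group 9 ranged from 15.4% in E16.5 distal to 32.8% in E16.5 proximal. HoxA genes together held between 44.5% (whole limb 1) and 69.5% (E16.5 proximal) of the UMIs. These shares compare libraries and not genes, since capture can differ between genes.

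**Figure D2:**
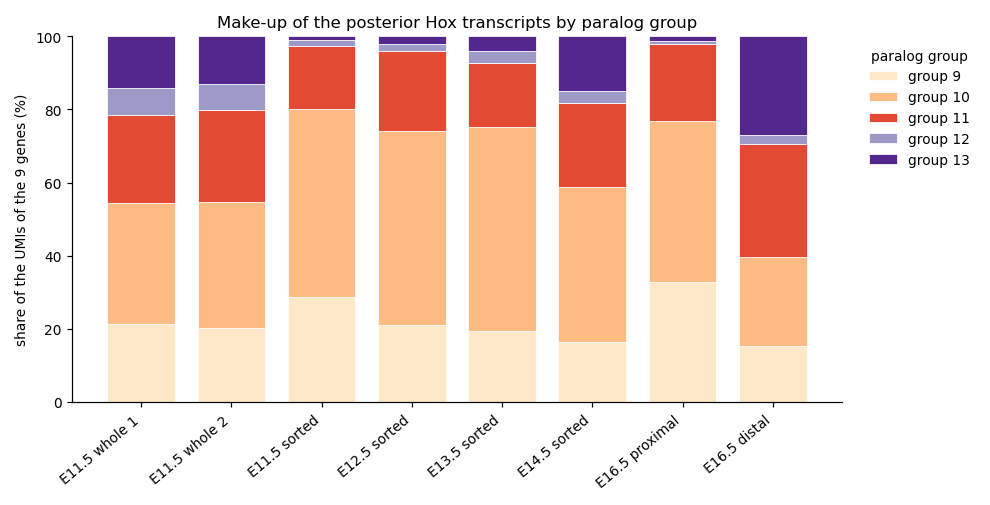
Share of the UMIs of the 9 genes (percent) held by paralog groups 9 to 13 in each library. The group 13 share is 26.9% in E16.5 distal and 1.32% in E16.5 proximal.

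The E11.5 sorted library was compared with both whole limb libraries, the single comparison in which a group has a replicate, to ask how the genes stand in Hic1-lineage cells against the limb bud as a whole. Genes at the 5′ ends of both clusters were lower in the sorted cells, with the difference growing from group 9 to group 13 in HoxD, and Hoxd9 was higher. In the quasi-likelihood test of edgeR with Benjamini-Hochberg adjustment over 15051 genes, 7 members were lower and 1 higher at an adjusted p under 0.05, where 26.5% of all genes tested were called lower, 26.9% higher and 53.4% in either direction. The fit had 1 residual degree of freedom, from the whole limb pair, and the sorted library was assumed to vary like them. The median log2 ratio was -0.91 over the 9 members and 0.01 over all genes tested. Ratios below are log2 of sorted over whole limb on the TMM scale, which lies 0.18 log2 units below the plain CPM ratio for every gene.

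Hoxa13 had the largest difference, with 15 UMIs in the sorted library, a log2 ratio of -5.13 ± 0.26 (SE; edgeR, adjusted p = 5.71e-86) and a mean of 14.9 ± 0.20 CPM (SD, n = 2) in whole limb. For Hoxd13 the log2 ratio was -4.20 ± 0.13 (edgeR, adjusted p = 3.72e-226), against a whole limb mean of 124 ± 13.4 CPM (SD, n = 2). Hoxd12 followed at -2.97 ± 0.13 (edgeR, adjusted p = 4.32e-115). These correspond to levels 35.0-fold, 18.4-fold and 7.85-fold lower in the sorted cells, each far beyond the gap between the whole limb libraries. Hoxd11 was 2.33-fold lower (log2 -1.22 ± 0.10, edgeR adjusted p = 8.69e-30). Hoxa11 was lower by less, with a log2 ratio of -0.91 ± 0.13 (edgeR, adjusted p = 1.35e-11). In groups 9 and 10 the differences were small and did not share a direction. Hoxa9 (log2 -0.60 ± 0.10) and Hoxd10 (log2 -0.51 ± 0.10) were lower, with edgeR adjusted p of 1.18e-08 and 6.8e-07, and Hoxd9 was 1.33-fold higher (log2 0.42 ± 0.09, edgeR adjusted p = 4.27e-05). Under the alternatives its adjusted p lay between 1.99e-07 and 0.0701, the latter without the filter on low counts. For the 7 lower members the adjusted p also depended on the setting. It lay between 0.0197 and 0.0473 without that filter, and between 3.96e-07 and 0.00206 without the cells of highest doublet score, so the very small values above should not be read as that firm. Hoxa10 had a log2 ratio of 0.06 with a 95% interval from -0.14 to 0.26 (edgeR, adjusted p = 0.65), so a difference was not shown. Beside these results, the 7 markers listed for distal limb mesenchyme (such as Msx1, Lhx2 and Tfap2b), each with UMIs in all 3 libraries, summed to 1383 and 1246 CPM in whole limb and to 179 CPM in the sorted library, and the 6 markers of proximal limb mesenchyme to 560 and 581 CPM and 774 CPM. Shox2 carried that rise, and the other 5 (Meis1, Meis2, Irx3, Irx5 and Emx2) summed to 197 and 226 CPM in whole limb and 179 CPM in the sorted library. They did not share a direction. Emx2 was higher in the sorted library (8.40 and 11.8 against 47.3 CPM). Irx3 (34.7 and 37.9 against 8.37 CPM), Irx5 (18.5 and 20.1 against 4.73 CPM) and Meis2 (105 and 122 against 85.4 CPM) were lower, and Meis1 was similar. Tenocyte markers (7 genes) summed to 61.2 and 60.1 CPM in whole limb and 264 CPM in the sorted library, and joint markers (5 genes) to 51.2 and 48.2 CPM and 296 CPM. The part of these differences in the Hox values was not tested, and the sort and the separate library preparations cannot be told apart.

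Lists of genes related to the members were read from the same test, and the genes named are those with the largest change in each list. Of 11 other HoxA and HoxD genes, 7 were lower and 1 higher, with Hoxa2 at log2 -1.75, Hoxa6 at -1.28, Hoxa3 at -1.24 and Hoxd8, next to Hoxd9, at 0.50 (edgeR, adjusted p = 4.27e-04). Of the HoxB and HoxC paralogs of groups 9 to 13, 5 of 7 could be tested and 3 were lower, all at under 3 CPM. Among 13 genes at the flanks of the clusters or antisense to them, 11 were lower and 0 higher, with a median log2 ratio of -0.80. Evx1, the homeobox gene beyond Hoxa13, had 7 UMIs in the sorted library and a log2 ratio of -5.25. Of the 7 Pbx and Meis genes, whose proteins bind DNA with Hox proteins, 4 were lower (Meis2 -0.59, Pbx3 -0.45) and Meis3 was higher (0.93). Among 13 upstream limb signals and factors, 7 were lower and 3 higher. Shh, the posterior signal that sustains the late HoxD wave, stood at 3.52 and 3.61 CPM in whole limb and at 4 UMIs in the sorted library (log2 -4.95). Sall4 was lower (log2 -2.70), and Aldh1a2, which makes retinoic acid, stood at 4.83 and 5.96 CPM in whole limb and 49.6 CPM in the sorted library (log2 3.02, edgeR adjusted p = 3.23e-115). Of 7 known targets of group 13 proteins, 3 were lower (Epha3 -2.16, Runx2 -1.57, Bmp2 -0.97) and 3 higher (Epha7 1.07, Shox2 0.55, Bmp7 0.35). None of these lists is set against chance here.

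Between sorted E11.5 and E13.5, libraries of the same kit, the group 13 genes and Hoxd12 were higher at the later stage while Hoxd9 was lower. Hoxd13 was 3.37-fold higher at E13.5 (log2 1.75, interval 1.55 to 1.96), with E12.5 between them, and with every cell thinned to 3000 UMIs the log2 ratio was 2.58. Hoxa13 gave a log2 ratio of 1.60 (interval 0.78 to 2.52) from 15 UMIs at E11.5, and Hoxd12 one of 0.97. Hoxa11 differed by 0.94, with E12.5 already at 0.99 over E11.5, and Hoxa10 by 0.04. Hoxd9 was lower, with a log2 ratio of -1.02 (interval -1.10 to -0.94), and Hoxa9, Hoxd10 and Hoxd11 gave -0.46, -0.26 and -0.49. Of the 8 members that reached 10 CPM in either library, 1 was at least 2-fold higher and 1 at least 2-fold lower, against 4.81% and 4% of 8892 genes. The lower one, Hoxd9, came to log2 -0.95 with cells thinned, and 0 members were then 2-fold lower. Hoxd12 was then past 2-fold upward (log2 1.45), which made 2 members higher, and it was so without the cells of highest doublet score too (log2 1.03). From E11.5 to E12.5, 0 of 8 passed 2-fold in either direction (2.22% of all genes higher and 1.07% lower). From E12.5 to E13.5 it was again 0 of 8, with Hoxd13 the nearest at log2 0.92 (1.58% of all genes higher and 1.79% lower).

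E14.5 differed from E13.5 by both a day and a kit. Hoxa13 was 11.5-fold higher at E14.5 (log2 3.52) and Hoxd13 2.29-fold (log2 1.20), Hoxd9 was lower (log2 -1.29), and the other 6 members differed by less than 2-fold, Hoxa10 the most (log2 -0.89). Thus 2 of 9 members were past 2-fold upward and 1 downward, where 4.51% and 5.81% of 8817 genes were. Against E14.5, E16.5 proximal was lower for all 9 members, 7 of them by 2-fold or more (5.79% of genes lower and 5.37% higher), in an order that ran from Hoxd9 (log2 -0.35) and Hoxa9 (-0.43) over Hoxa10 (-1.21), Hoxd11 (-1.54) and Hoxa11 (-1.63) to Hoxd10 (-2.20), Hoxd12 (-3.38), Hoxd13 (-4.88) and Hoxa13 (-5.04). E16.5 distal against E14.5 gave log2 ratios of 0.92 for Hoxa13, 0.48 for Hoxa11 and 0.43 for Hoxd13, none past 2-fold, while Hoxa10 (-1.06) and Hoxd10 (-1.29) were lower past it (6.35% of genes lower, 8.27% higher). These 2 comparisons share the E14.5 library, and the dissection differs as well as the stage.

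The E16.5 segments put the distal forearm and hand plate against the elbow region, which includes the proximal forearm, at 1 stage and with 1 kit. Distal cells had more of every member from group 11 on, and similar amounts of groups 9 and 10 apart from Hoxd10. Hoxa13 was 62.4-fold higher in the distal library (log2 5.96, interval 5.68 to 6.26) and Hoxd13 39.7-fold (log2 5.31, interval 5.17 to 5.46). Hoxd12 was 6.81-fold higher (log2 2.77), Hoxa11 4.30-fold (log2 2.11) and Hoxd11 2.80-fold (log2 1.48). The remaining 4 lay within 2-fold, Hoxd10 at log2 0.91, Hoxa10 at 0.15, Hoxa9 at 0.14 and Hoxd9 at -0.37 (interval -0.45 to -0.28). So 5 of 9 members were at least 2-fold higher and 0 lower, where 3.77% of 8381 genes were higher and 2.04% lower, and the median log2 ratio was 1.48 over the members and 0.09 over all genes. Other HoxA and HoxD genes did not share this: of 2 that reached 10 CPM, Hoxa7 was lower (log2 -1.08) and none was higher. The Meis genes, known for the proximal limb, were lower distally (Meis2 -2.14, Meis1 -1.69, Meis3 -1.34), and 5 of 9 upstream factors were higher, led by Cyp26b1 (1.67), which degrades retinoic acid, Tbx5 (1.38) and the hedgehog receptor gene Ptch1 (1.24). Of the 7 targets of group 13 proteins 0 passed 2-fold. Of the 13 genes at the flanks of the clusters or antisense to them, 7 reached 10 CPM, and 0 of these passed 2-fold. Below 10 CPM, Evx2 (4.43 CPM distally and 0.0603 CPM proximally), Hottip (0.58 and 0.0352 CPM) and Evx1 (0.0829 and 0.0201 CPM) were higher distally. Haglr (0.134 and 0.663 CPM) and Hoxd3os1 (2.66 and 5.58 CPM) were lower, and Hoxaas3 was similar (0.969 and 0.879 CPM). Beside this, the 7 distal limb mesenchyme markers summed to 139 CPM in the distal and 78.1 CPM in the proximal library, and the 6 proximal ones to 226 and 296 CPM, or 109 and 108 CPM without Shox2. Within that last sum the markers differed in direction. Meis1 (4.10 and 13.2 CPM) and Meis2 (8.24 and 36.3 CPM) were lower distally. Irx3 (19.5 and 10.2 CPM) and Irx5 (52.2 and 24.3 CPM) were higher, and Emx2 was similar (24.9 and 23.6 CPM). Other cell types shifted more. The 9 measured chondrocyte markers summed to 1165 CPM in the distal and 5083 CPM in the proximal library, the 13 muscle fibre markers to 32.6 and 117 CPM, the 8 myogenic markers to 5.87 and 19.4 CPM and the 8 glial markers to 17.8 and 50.3 CPM. Their part in the result was not tested.

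The segment difference was then taken cluster by cluster, because the segments held different mixtures of cells. Hox genes had no part in the clustering, although their neighbours Evx1 and Evx2 were not excluded from it. In all, 11 clusters held at least 100 cells in each segment. Large clusters found almost only in 1 segment are outside this comparison. Among them are clusters 1 (1741 distal and 27 proximal cells), 4 (1115 and 12), 6 (991 and 25) and 7 (986 and 22). Chondrocyte-like cluster 8 (24 distal and 962 proximal cells) is outside it too. In all 11 the distal cells had more Hoxa11, Hoxa13, Hoxd11 and Hoxd13, with intervals above 0. In cluster 9 the distal levels were 1.40 CPM of Hoxa13 from 5 UMIs and 3.63 CPM of Hoxd13 from 13 UMIs, and epithelial-like cells of that library had 0.83 CPM from 2 UMIs and 0.41 CPM from 1 UMI, so these levels are not clearly told apart from background. Hoxd13 log2 ratios ran from 1.69 in cluster 9, a dermal fibroblast-like cluster (1.13 CPM proximal), to 9.50 in cluster 15, a perichondrial-like cluster. There 1368 UMIs (217 CPM) in 417 distal cells stood against 1 UMI (0.30 CPM) in 210 proximal cells, an interval on the log2 ratio of 7.02 to 14.81. Tenocyte-like cluster 3 had 68.9 CPM of Hoxd13 distally and 1.32 proximally, and mitotic cluster 2 had 58.9 and 3.52. For Hoxa13 the median log2 ratio over the clusters was 4.89, with 4 clusters at 0 UMIs proximally, for which the ratio is a lower bound from a floor of 3 UMIs. Hoxa11 ratios ran from 0.65 in fibroblast-like cluster 12 to 4.03 in cluster 14, a histone-led mitotic cluster in which all 9 dermal fibroblast markers were up as well as the 8 mitotic ones, and which had 106 CPM distally and 6.50 proximally. Hoxd12 was higher distally in 10 clusters, and in cluster 12 its interval included 0. Hoxd10 was higher distally in 7 and lower in 0, with intervals that included 0 in 4 and a median of 0.71. In contrast Hoxa9 was higher in 2 and lower in 3, Hoxa10 higher in 4 and lower in 5, and Hoxd9 higher in 2 and lower in 4, with medians of -0.05, -0.10 and -0.24. Within classes the direction was the same for group 13. Dermal fibroblast-like cells gave a Hoxd13 log2 ratio of 3.78, but the distal cells were mostly cluster 4 and the proximal ones cluster 9. Fibroblast-like cells gave 3.97 for Hoxd13, and 1.10 for Hoxd9 where the whole segments gave -0.37, with distal cells mostly in cluster 12 and proximal ones in clusters 10 and 16.

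**Figure D3:**
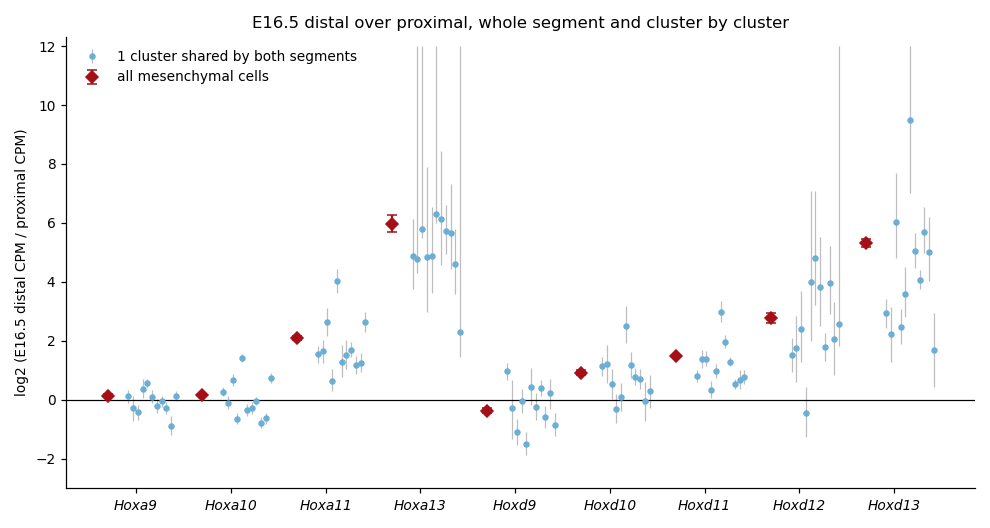
Log2 ratio of E16.5 distal over E16.5 proximal for each gene, with a diamond for all mesenchymal cells and dots for the 11 clusters with at least 100 cells in each segment. Bars are 95% counting intervals, cut at 12, and clusters without a proximal UMI are drawn at their lower bound. Hoxa11, Hoxa13, Hoxd11 and Hoxd13 lie above 0 in all 11 clusters, and Hoxa9, Hoxa10 and Hoxd9 fall on both sides.

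Within a library the members followed region and cell type. In whole limb 1 and 2, clusters 2 and 5, both distal limb mesenchyme-like and led by Tfap2b, Lmo2 and Evx2 (the gene next to Hoxd13), had 342 and 318 CPM and 361 and 334 CPM of Hoxd13. Together they held 72.0% and 72.6% of all Hoxd13 UMIs and 68.9% and 69.0% of those of Hoxa13, with 27.3% and 25.4% of all UMIs. Proximal limb mesenchyme-like cluster 9 (led by Pax1 and Meis2) had 4.57 and 8.18 CPM of Hoxd13, and cluster 6 had 7.29 and 7.05. Hoxa11 did not follow the same order. In clusters 2 and 5 it stood at 17.8 to 22.7 CPM, below the library levels, but it was lower still in the proximal limb mesenchyme-like clusters 6, 9 and 15 (5.45 to 9.99 CPM), and its highest cluster was 17, a small distal limb mesenchyme-like cluster, with 77.3 and 88.3 CPM. Of the mesenchymal clusters, Hoxd9 was lowest in 2 and 5, at 27.1 to 35.4 CPM, and stood at 126 and 116 CPM in chondrocyte-like cluster 4. Hoxa9 ranged from 82.6 to 268 CPM over the clusters of both libraries, in ratio the narrowest range of the 9 genes.

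At E14.5 Hoxa13 and Hoxd13 were again highest in the same clusters. Distal limb mesenchyme-like cluster 17 and unnamed cluster 11 (led by Ephb1 and Islr2) had 264 and 180 CPM of Hoxd13, 56.1 and 63.5 CPM of Hoxa13 and 10.0 and 11.5 CPM of Hoxa11. They held 67.0% of the Hoxd13 UMIs and 66.2% of those of Hoxa13, with 18.3% of all UMIs. Perichondrial-like cluster 16 had 246 CPM of Hoxa10 and 61.9 CPM of Hoxa11, but 5.47 CPM of Hoxd13 and 2.34 CPM of Hoxa13. At E13.5, cluster 13 (led by Stmn2 and Fam159a) stood out with 92.8 CPM of Hoxd13, and its Hoxa13 level was 6.58 CPM, against 0 to 0.94 CPM in the other clusters of 100 cells or more. Its Hoxa11 level, 53.4 CPM, was not low.

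In E16.5 distal the perichondrial-like cluster 15 (217 CPM), cluster 6 led by Sema3e and Lhx9 (157 CPM) and cluster 1 led by Ephb1 and Nkain3 (137 CPM) had the most Hoxd13. Cluster 6 had 8 of the 9 measured chondrocyte markers up but was left unnamed because of its leading genes. Cluster 1 had 8.07 CPM of Hoxa11, its lowest level in that library and close to the 7.87 CPM of epithelial-like cells, so it is not told apart from background. Dermal fibroblast-like cluster 4 was the reverse for Hoxa11 and Hoxd13, with 130 CPM of Hoxa11, 168 CPM of Hoxa10, 19.7 CPM of Hoxd13 and 1.79 CPM of Hoxd12. Hoxa13 was not absent there. All distal dermal fibroblast-like cells together had 486 Hoxa13 UMIs (20.8 CPM, against 31.7 CPM in the library). Clusters 9 and 21 held only 5 and 13 of these. Cluster 4 and cluster 14 together held 44.4% of the Hoxa11 UMIs with 16.3% of all UMIs. In this segment, which joins distal forearm and hand plate, dermal cluster 4 thus had high Hoxa11 and low Hoxd13, and perichondrial cluster 15 high Hoxd13 with 27.1 CPM of Hoxa11, below the library level.

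**Figure D4:**
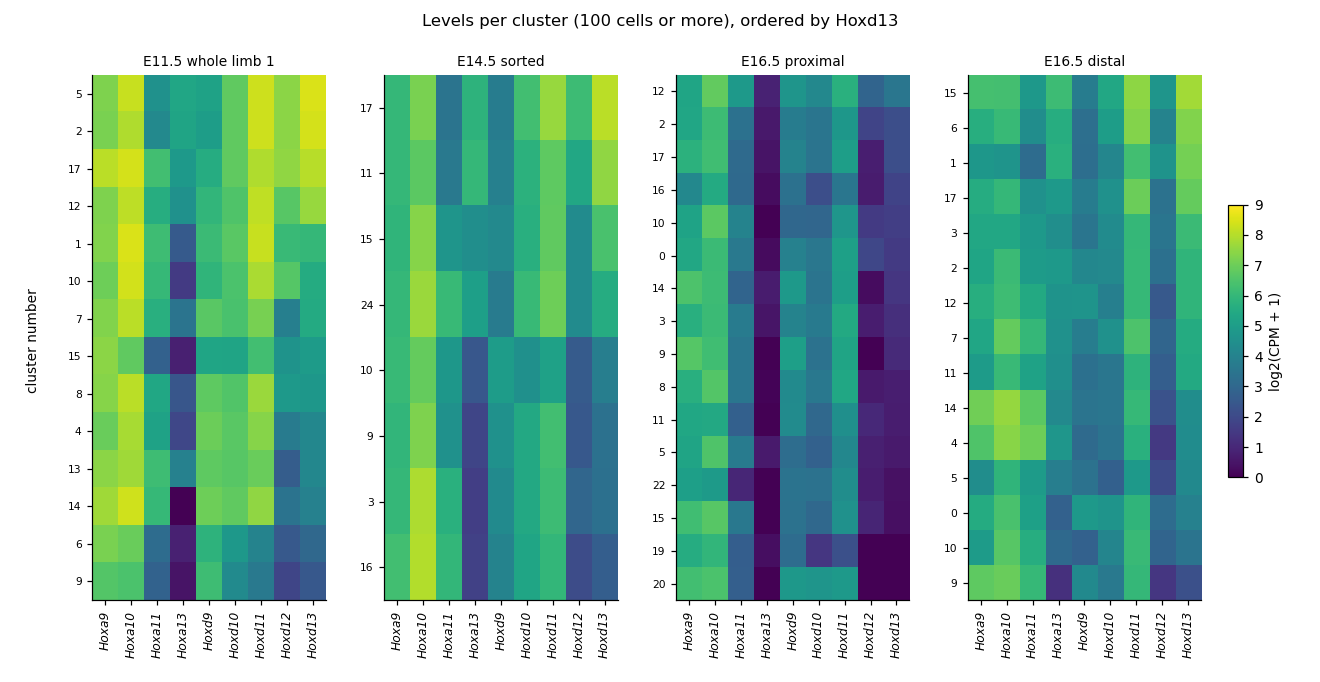
Level of each gene (columns; colour is log2(CPM + 1)) in the clusters (rows, named by number, ordered by Hoxd13; only the E16.5 panels share their numbers) with at least 100 cells of whole limb 1, E14.5 sorted, E16.5 proximal and E16.5 distal. Hoxa13 and Hoxd13 are high in the same rows, at the top of the whole limb, E14.5 and E16.5 distal panels, and in E16.5 proximal both are low, apart from some Hoxd13 in cluster 12.

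Cells outside the mesenchyme served as a check on free RNA, which reaches all droplets. In E16.5 proximal, 937 epithelial-like cells (median 37708 UMIs) had 5.18 CPM of Hoxa10 and 2 UMIs of Hoxd13, and thinned to 3000 UMIs 1.71% of them had a Hoxa10 UMI, against 19.2% of mesenchymal cells. The thinned Hoxd13 share was 0% in 69 epithelial-like cells at E14.5 and 0% in 67 in E16.5 distal, counts of 0 that allow a share of up to 4.35% and 4.48%. In whole limb, 19 and 24 endothelial-like cells had 25.9 and 35.5 CPM of Hoxd13 from 6 and 9 UMIs, and thinned shares of 5.26% and 8.33%. The lowest mesenchymal clusters, 9 in whole limb 1 (4.57 CPM) and 6 in whole limb 2 (7.05 CPM), lay below that. The endothelial-like level therefore does not give the level of free RNA. Platelet-gene-led cells, 45 and 32 of them, had 4.81 and 6.42 CPM from 2 UMIs each. Whole limb clusters with Hoxd13 near those levels are not told apart from background. Myogenic cells of whole limb, 314 and 294 cells that migrate in from the somites, had a distinct mix. Their Hoxa9 (151 and 141 CPM) and Hoxa11 (49.2 and 38.4 CPM) levels were near those of the mesenchyme and Hoxa10 (162 and 168 CPM) below it, while Hoxd9 (11.4 and 15.2 CPM), Hoxd10 (8.46 and 10.1 CPM) and Hoxd11 (20.1 and 25.3 CPM) were well below them. Endothelial-like cells had 12.9 and 11.8 CPM of Hoxd9 (3 UMIs each), 4.31 and 3.94 of Hoxd10 (1 UMI each), and 43.1 and 31.5 of Hoxd11. Myogenic Hoxd9 and Hoxd11 were thus near or below the endothelial-like level, which does not give the level of free RNA. Mesenchymal cluster 9 had less Hoxd11 than the myogenic cells, with 11.4 and 15.2 CPM. The standing of myogenic Hoxd9 and Hoxd11 against background is therefore not settled. Myogenic Hoxd12 (9.45 and 5.61 CPM) was close to the endothelial-like level. Myogenic Hoxd13 (15.9 and 10.1 CPM) was below the endothelial-like level but above the platelet-gene-led one, so its standing against background is not settled. Hoxa9, in contrast, stood at only 25.9 and 15.8 CPM in the endothelial-like cells.

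Detection in the same cell was counted with all cells thinned to 3000 UMIs, as the number of cells with a UMI of both genes over the number expected from each gene alone in that library. Over all 36 pairs these counts describe cells of 1 library, which are not replicates. Hoxa13 and Hoxd13 were found together more often than expected, in 111 cells of whole limb 1 where 39.5 were expected (ratio 2.81, interval 2.31 to 3.38), 106 of whole limb 2 (36.3 expected, ratio 2.92), 164 at E14.5 (55.6 expected, ratio 2.95) and 249 in E16.5 distal (145 expected, ratio 1.72). At E13.5, where Hoxa13 was rare (27 cells), 11 cells had both (ratio 6.55, interval 3.27 to 11.7). Hoxa11 and Hoxa13 gave ratios below 1 in the 4 libraries where both were frequent. They met in 14 cells of whole limb 1 (21.2 expected, ratio 0.66, interval 0.36 to 1.11), 6 of whole limb 2 (17.3 expected, ratio 0.35, interval 0.13 to 0.76), 17 at E14.5 (35.0 expected, ratio 0.49, interval 0.28 to 0.78) and 74 in E16.5 distal (88.6 expected, ratio 0.84, interval 0.66 to 1.05). In whole limb 1 and E16.5 distal the interval included 1, and without thinning the ratio of whole limb 2 was 0.93. At E12.5, where Hoxa13 was rare, 2 cells had both (0.93 expected, ratio 2.16, interval 0.26 to 7.79), and in the E11.5 sorted, E13.5 and E16.5 proximal libraries 0 cells did, with at most 2.77 expected. Hoxa11 with Hoxd13 gave ratios of 0.60 and 0.69 in whole limb, 1.52 at E12.5 (interval 0.94 to 2.32), 0.29 at E14.5 and 0.37 in E16.5 distal, and Hoxd12 with Hoxd13 ratios of 2.41 and 2.60 in whole limb, 3.34 at E14.5 and 2.32 in E16.5 distal. Hoxd9 with Hoxd13 gave 0.59 and 0.58 in whole limb and 1.05 in E16.5 distal. For the neighbours Hoxa9 and Hoxa10 the ratios of all 8 libraries lay between 1.12 and 1.43. Of the cells with a Hoxa13 UMI, 54.4% and 54.1% in whole limb also had one of Hoxd13, 38.6% at E14.5 and 33.1% in E16.5 distal, against 17.9%, 17.2%, 11.7% and 17.9% of the other cells. A thinned cell had a UMI of 2.07 and 1.99 members on average in whole limb, 1.54 in E11.5 sorted, 1.19 at E14.5, 0.52 in E16.5 proximal and 1.06 in E16.5 distal. Cells with none made up 15.4% of whole limb 1 and 60.3% of E16.5 proximal.

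**Figure D5:**
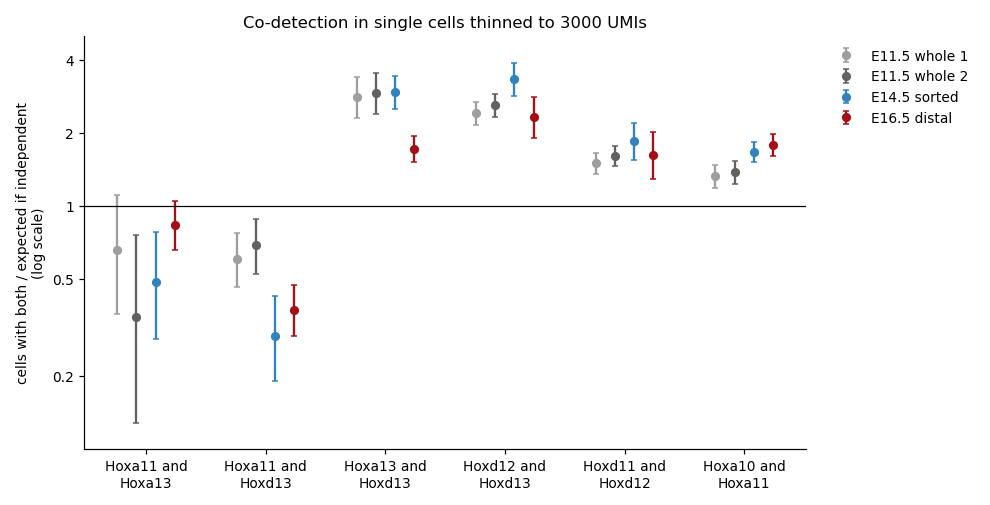
Number of cells with a UMI of both genes over the number expected if independent (log axis, cells thinned to 3000 UMIs) for 6 pairs of members in 4 libraries, with 95% counting intervals. Hoxa13 with Hoxd13 lies above 1 in all 4, with ratios of 2.81, 2.92, 2.95 and 1.72, and Hoxa11 with Hoxa13 lies below 1, with intervals that include 1 in whole limb 1 and E16.5 distal.

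Cells with a thinned UMI of Hoxa13 and none of Hoxa11 were summed and set against cells with the reverse, in the 4 libraries where each kind was frequent. There were 190 and 515 such cells in whole limb 1, 190 and 464 in whole limb 2, 408 and 667 at E14.5, and 678 and 913 in E16.5 distal. Hoxd13 stood at 354 CPM in the Hoxa13 cells and 77.8 CPM in the Hoxa11 cells of whole limb 1 (log2 2.19, interval 2.01 to 2.37). It stood at 317 and 60.8 CPM in whole limb 2 (log2 2.38), 210 and 18.2 CPM at E14.5 (log2 3.53), and 151 and 29.6 CPM in E16.5 distal (log2 2.35). All 4 libraries thus had several times more Hoxd13 in the Hoxa13 cells. Hoxd12 differed in that direction too, by log2 1.41, 1.70, 2.35 and 1.66. Hoxd9 went the other way, by -1.55, -1.65, -0.63 and -0.69, and Hoxa10 by -0.25, -0.37, -1.21 and -1.38. Hoxd11 (0.17, 0.26, 0.26 and 0.83) and Hoxd10 (-0.05, 0.07, -0.00 and 0.92) differed little except in E16.5 distal. Of the 7 members that did not define the cells, Hoxd12 and Hoxd13 were at least 2-fold higher in each library, where 0.983%, 1.22%, 1.01% and 1.53% of all genes were. At least 2-fold lower were Hoxd9 in each whole limb library and Hoxa10 at E14.5 and in E16.5 distal, where 1.89%, 2.05%, 2.26% and 2.5% of all genes were. Among the genes around the clusters, Evx2 was higher in the Hoxa13 cells (log2 2.23, 2.92, 3.52 and 2.66), Lnp, the gene beyond Evx2, by 1.16, 1.05, 1.31 and 0.69, and Hoxd8 was lower (-1.88, -1.98, -2.41 and -2.10). Shox2, a target of group 13 proteins and a marker of the proximal limb, was lower as well (-2.54, -3.25, -3.04 and -2.43).

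Levels of the members were compared with each other and with 6031 genes over 55 sums of cells. Each sum held 1 cluster of at least 100 cells in 1 sorted library, and whole limb was left out. This is a description, in which sums of 1 library share its depth and kit. Hoxa13 and Hoxd13 had the most similar pattern of any 2 members (Pearson r = 0.86 of log2(CPM + 1)), followed by Hoxd10 and Hoxd11 (0.82), Hoxd12 and Hoxd13 (0.80) and Hoxd11 and Hoxd12 (0.77). Hoxa9 and Hoxa10 gave 0.72. Hoxa13 and Hoxd9 had the most opposed (-0.41). Among genes that are no members, those most like Hoxa13 were Ddx6 (0.81), Tnrc6c, Zfp451, Whsc1l1 and Prpf8, those most like Hoxd13 were Ppp2r3a (0.75), Prpf8, Smad2, Setd2 and Chd8, and those most like Hoxa11 were Pdzrn3 (0.68), Zfp503, Spag7, Chd8 and Topors.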

How the data were processed

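Single-cell libraries of mouse forelimb cells were grouped by their labels, except that the segment of the E16.5 proximal library, which its label does not give, was inferred. Per the methods, the authors aligned reads to a modified mm10 genome with the Cell Ranger count pipeline and deposited raw UMI counts per gene and cell; the file headers name Cell Ranger 3.0.2 for 5 sorted libraries and 6.0.1 for E16.5 distal, and no version for whole limb. Cells with at least 3000 UMIs and at most 10% mitochondrial UMIs were kept and clustered without Hox genes (scanpy 1.11.5, leidenalg 0.10.2, 50 principal components, 25 neighbours, resolution 1). Evx1 and Evx2, which flank the Hox clusters, were not excluded from the clustering. Clusters were named "-like" from listed markers. Clusters of muscle, epithelium, endothelium, blood and glia were left out, as was a platelet-gene-led cluster by a rule added after the clusters were seen, and counts of the remaining mesenchymal cells were summed per library. A doublet caller marked only 0.024% to 0.26% of the cells of a library and was not relied on, so doublets were left in. Summed E11.5 counts were tested with the edgeR 4.0.16 quasi-likelihood test (R 4.3.3, TMM scaling, filter on low counts, Benjamini-Hochberg at 0.05), which was tested on simulated data, with DESeq2 1.42.0, limma 3.58.1, other filters and left-out libraries as alternatives. Elsewhere, with 1 library per group, ratios of CPM are given, and genes that reach 10 CPM in either library are counted as past 2-fold or not. Intervals cover counting error only, and 0 UMIs were given a floor of 3. For shares of cells and co-detection each cell was thinned to 3000 UMIs. Promoters are from RefSeq (GRCm38.p6). All 9 members are named, and per list up to 4 genes with the largest change; genes most like a member were ranked among those at 50 CPM or more in a sum. The members and lists were chosen with earlier results of these data known.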

Additional observations from a re-analysis of the deposited data

Results flagged for a closer look

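In the E16.5 segments 3 of the 9 genes differed between clusters in direction, with a distal over proximal ratio on both sides of 0 and counting intervals that did not include it. Hoxa9 gave its highest log2 ratio, 0.56, in cluster 14, a mitotic cluster led by histone genes in which all 9 dermal fibroblast markers were up too, and its lowest, -0.88, in unnamed cluster 5, led by D630033O11Rik, Lypd2 and Ccl11. The highest log2 ratio of Hoxa10 was 1.42, again in cluster 14, and the lowest -0.78, in tenocyte-like cluster 3. Hoxd9 was the reverse in cluster 14, with -1.49, and reached 0.96 in unnamed cluster 0, led by the muscle genes Acta1 and Tnnc2. Each segment is 1 library, so these differences between clusters were not tested.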

How the results depend on the processing

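Of 215 values recomputed under another setting, 185 kept their direction, side of the threshold or size. The 9 E11.5 ratios kept their side of the threshold in 53 of the 54 cases that have a test. Of 45 E16.5 segment ratios of single members 26 kept their size within the counting interval, 17 moved past it and 2 turned direction. Without the filter on low counts the number of members called higher went from 1 to 0 (Hoxd9 at log2 0.40, adjusted p = 0.0701), and over all genes 1868 were called higher and 2029 lower, against 4047 and 3991. DESeq2 called 2044 and 2864. Leaving out either whole limb library gives 1 library against 1, a value with no test, with log2 ratios of -0.64 to -0.55 for Hoxa9, 0.03 to 0.09 for Hoxa10, -0.98 to -0.84 for Hoxa11, -5.14 for Hoxa13 both times, 0.35 to 0.49 for Hoxd9, -0.58 to -0.45 for Hoxd10, -1.25 to -1.20 for Hoxd11, -3.01 to -2.93 for Hoxd12 and -4.29 to -4.11 for Hoxd13. Between E16.5 segments, fibroblast-like cells alone turned the direction of Hoxa10 (log2 -0.038) and Hoxd9 (1.10), took Hoxd12 from 2.77 to 1.44 and Hoxd13 from 5.31 to 3.97, and put 6 of 8 members past 2-fold (5.68% of all genes) in place of 5 of 9. With all filtered cells it was 6 of 9 (4.90%). With cells thinned to 3000 UMIs, members at least 2-fold lower at E13.5 than at E11.5 went from 1 to 0 and those higher from 1 to 2, the latter also without the cells of highest doublet score. Without thinning, the co-detection ratio of Hoxa11 and Hoxa13 in whole limb 2 was 0.93 in place of 0.35, and that of Hoxa13 and Hoxd13 in E16.5 distal 1.49 in place of 1.72. The cause was not tested. No paired analysis was possible because the sorted E11.5 group has 1 library, so fewer than 2 numbers are shared with whole limb. Depth limits Hoxa13 most, with 15 UMIs in the E11.5 sorted library.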
